A study of Macaca fascicularis with 9 samples.

Results

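The genes described here are the nuclear-encoded genes of the mitochondrial respiratory chain, taken as every feature whose symbol begins with NDUF, UQCR, ATP5 or COX4 to COX8, or is SDHA, SDHB, SDHC or SDHD. The rule found 57 of the 29128 features in the count matrix. Of these, 33 belonged to complex I by their symbols (4 core subunits, 21 accessory subunits and 8 assembly factors), 2 to complex II, 1 to complex III, 13 to complex IV and 8 to complex V. NDUFA4 was counted with complex I, after its symbol, although it is now known as a subunit of complex IV. The 57 genes held 817076 UMIs (unique molecular identifiers, each standing for 1 captured transcript) over all nuclei.

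The nuclei came from frozen brain tissue of 9 female cynomolgus monkeys, labelled thalamus, and were sorted on DAPI before droplet sequencing. In the saline group, 3 animals received saline intravenously in 4 biweekly doses. In the group called OTV, 3 animals received OTV:MALAT1 intravenously at 30 mpk on the same schedule. OTV:MALAT1 is an antisense oligonucleotide (ASO) against the nuclear RNA MALAT1 joined to a transport vehicle that binds the transferrin receptor. In the group called ASO, 3 animals received 4 mg of MALAT1 ASO intrathecally in 1 dose, so this group differed from saline in the route and the number of doses as well as in the agent, and no group received saline intrathecally. Brains were collected 2 weeks after the final dose, and the labels used here state no ages.

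The respiratory chain passes electrons from NADH, through complex I, and from succinate, through complex II, to complexes III and IV, and the proton gradient it builds drives ATP synthesis by complex V. Complexes I, III, IV and V mix subunits encoded in the nucleus with subunits encoded on mitochondrial DNA, whereas complex II is wholly nuclear-encoded. Neurons depend heavily on this supply of ATP, astrocytes combine it with active glycolysis, and oligodendrocytes draw on it during myelination. Transcripts of the nuclear genes are made in the nucleus, while those of the mitochondrial genes are made inside mitochondria, which a nuclear preparation is meant to leave behind.

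Across the series, 79994 nuclei carried 528.0 M UMIs (1 M is 1000000), with 19.98 M to 98.85 M per animal and a median of 2579 to 7791 per nucleus. The authors' cell type names include oligodendrocytes, oligodendrocyte precursor cells (OPCs), myeloid nuclei, astrocytes and neurons, and the first 4 of these had at least 20 nuclei in every animal. Neurons numbered 17 to 527 per animal, and 2 ASO animals fell below 20. MALAT1 took 6.11%, 6.36% and 5.38% of UMIs in saline animals 1, 2 and 3, 4.51%, 4.15% and 5.60% in ASO animals, and 3.80%, 3.25% and 3.12% in OTV animals. The OTV animals lay below every saline animal, at a log2 fold change of -0.71 that was not called by edgeR's quasi-likelihood test (adjusted p = 0.0785). Barcode sequences shared between libraries touched 1522 nuclei (1.90%). A region score, the mean log2 level of diencephalic minus that of telencephalic astrocyte markers in the astrocytes, was 4.37 to 5.38 in OTV animals but ran from -0.96 to 4.22 in saline and from -1.13 to 4.33 in ASO animals, so the labelled region was not equally marked in all libraries. Striatal neuron markers, with 5 of 6 measured, took 2.85 to 72.2 of 10000 UMIs in the neurons.

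Together, the 57 genes took a less variable share of UMIs than the mitochondrial genes. In saline animals 1, 2 and 3 they took 15.3, 15.5 and 13.04 of every 10000 UMIs over all nuclei, in ASO animals 15.4, 18.7 and 16.2, and in OTV animals 13.7, 11.2 and 12.5. The group means were 14.6 ± 1.36 (SD, n = 3), 16.7 ± 1.72 and 12.5 ± 1.24, and the highest animal stood 1.67-fold above the lowest. ASO animals lay above OTV animals without overlap, while OTV animal 1 exceeded saline animal 3. These are sums over nuclei, in which a change in the makeup of the nuclei and a change within each nucleus cannot be told apart.

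The 13 genes on mitochondrial DNA, which encode the core membrane subunits of complexes I, III, IV and V, took 2.64, 1.38 and 0.452 of every 10000 UMIs in saline animals, 0.0368, 0.0793 and 0.0496 in ASO animals, and 14.5, 5.45 and 8.32 in OTV animals. The 3 groups did not overlap, and the highest animal stood 395-fold above the lowest. COX3, a core subunit of complex IV, had 3930, 3388 and 215 UMIs in saline animals, 90, 255 and 106 in ASO animals, and 31586, 4054 and 6744 in OTV animals. ND3 and ND4L, both complex I subunits, had 0 UMIs in the ASO animals together, which allows up to 0.0127 CPM (UMIs per 1000000 UMIs, the scale of every gene level below) by counting error alone. The same order of groups was seen inside each of the 4 types: among myeloid nuclei, for example, the mitochondrial share was 2.32, 1.54 and 0.505 in saline animals, 0.0320, 0.0872 and 0.0422 in ASO animals, and 14.2, 5.49 and 8.97 in OTV animals. In neurons of OTV animal 1 it reached 49.8, and endothelial markers (3 of 5 measured, none at 0) took 9.43 of 10000 UMIs there, beside 0.0394 to 3.99 in the neurons of saline animals and 0.307 and 1.85 in those of OTV animals 2 and 3. In the neurons of ASO animals 1, 2 and 3 these markers took 10.02, 0.112 and 0.685, beside mitochondrial shares of 0, 0.0374 and 0.0198. ASO animals 1 and 2 held only 18 and 17 neurons. The part of the endothelial markers in the value of OTV animal 1 was not tested. A pair of features without a symbol, ENSMFAG00000046424 and ENSMFAG00000046427, had another order: the first had 49, 23 and 2 UMIs in saline animals, 4609, 12852 and 6032 in ASO animals, and 147, 47 and 87 in OTV animals, and what it encodes is not given in the files. No source used here states whether every library was counted on the same annotation with the same filters, and the shares, levels and fold changes of mitochondrial and nuclear genes alike, and the limit at 0 UMIs, can be compared between groups only if they were. What sets the amount of mitochondrial RNA in these libraries was not tested.

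In the OTV against saline comparison, edgeR called 11 of the 13 mitochondrial genes higher over all nuclei and none lower, with a median log2 fold change of 2.89, and the DESeq2 Wald test called 13. In ASO against saline, edgeR called 2 lower and DESeq2 13 lower. The nuclear genes showed no difference of this size in either comparison: their median log2 fold change was -0.27 in OTV against saline and 0.25 in ASO against saline, beside -0.06 and -0.01 over all genes tested. Both comparisons use the same saline animals. When the mitochondrial genes and the pair of features without a symbol were left out of the totals, 70 of the 70 named calls among the nuclear genes were still called. The mitochondrial genes took at most 14.5 of 10000 UMIs over all nuclei, so leaving them out could hardly move the totals. The result decides nothing on how the libraries were counted.

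**Figure D1:**
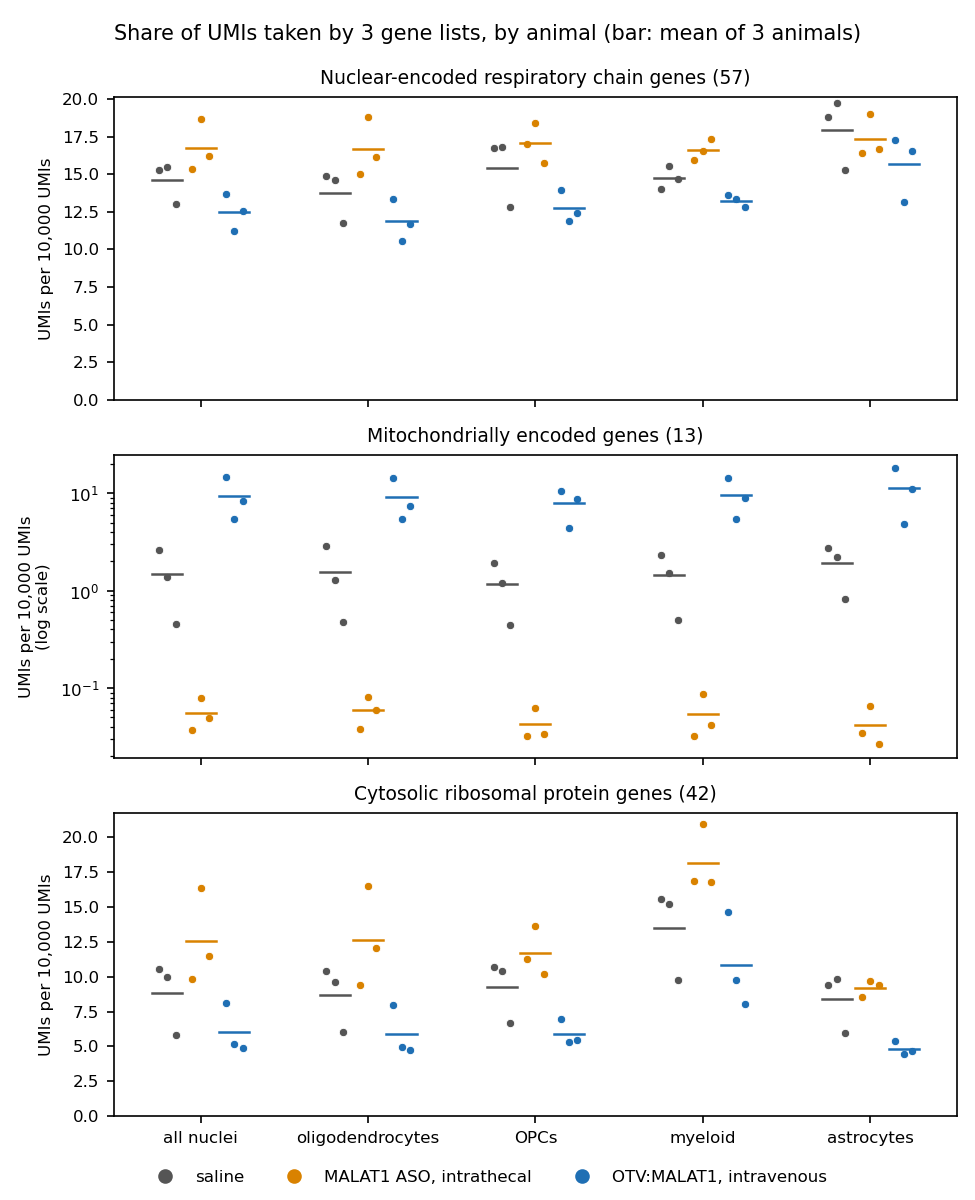
Share of UMIs per animal taken by the 57 nuclear-encoded respiratory chain genes, the 13 mitochondrial genes (log scale) and 42 cytosolic ribosomal protein genes, over all nuclei and in 4 cell types. Points are animals and bars are means of 3 animals. The nuclear genes stay between 10.6 and 19.7 of 10000 UMIs in every panel position, while the mitochondrial genes separate the 3 groups.

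Cytosolic ribosomal protein genes, another class of short and abundant messages, followed the nuclear respiratory genes in direction and spread more widely. Their share was 10.5, 9.98 and 5.86 of 10000 UMIs in saline animals, 9.80, 16.4 and 11.5 in ASO animals, and 8.08, 5.17 and 4.89 in OTV animals, a 3.35-fold range. ASO animal 2 was highest for both classes, while the lowest was OTV animal 2 for the nuclear respiratory genes and OTV animal 3 for the ribosomal ones. Of the 52 respiratory genes with enough UMIs to test, 31 had their highest level over all nuclei in ASO animal 2, the deepest library, and 37 had their lowest in OTV animal 2 or 3, which with saline animal 3 were the shallowest. Saline animal 3, the shallowest of all, was lowest for 9 of these genes and highest for 4. The same counts over all genes are not given. The part of library depth in the differences below was not tested apart from the alternatives given with each.

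Members differed in how far they moved between animals. The ratio of the highest to the lowest of the 9 animals had a median of 2.31 over the 52 members and of 4.07 over the 10 tested complex IV subunits, beside 3.10 over the 21044 genes seen in every animal, many of which have few UMIs. COX6B1, the subunit of complex IV that faces the intermembrane space, ranged most, from 2.49 to 23.8 CPM (9.59-fold). SDHC, a membrane anchor of complex II, ranged from 18.9 to 23.9 (1.27-fold), and NDUFAF6, a complex I assembly factor, from 22.6 to 28.4 (1.26-fold). Among the 57 members, 5 were too low to test: COX4I2, COX6A2 and NDUFA4L2, isoforms of other tissues or of hypoxia, together with NDUFA11 and COX6B2. COX6B2, the testis isoform, had 0 UMIs in all animals, which allows up to 0.00568 CPM.

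After OTV:MALAT1, a few respiratory chain genes were lower than in saline and a few higher. Over all nuclei, edgeR's quasi-likelihood test, with p-values adjusted over 21854 genes, called 2 of 52 members lower, NDUFB9 and COX7A2, and 3 higher, NDUFA10, NDUFS1 and NDUFV1. Of all genes tested, 9.94% were called lower and 5.72% higher, so the members' count was below the background for lower calls and close to it for higher calls. A further 7 reached an unadjusted p under 0.05 without being called, 12 in all. DESeq2 called 4 lower and 5 higher. Shares of all genes called, here and below, come from the main edgeR fits. None is given for DESeq2, for fits with an animal left out or for other settings. The count of 5 was 1 without saline animal 1, saline animal 2 or OTV animal 3, and 3 without OTV animal 2 or any 1 ASO animal. In level, 10 members were below every saline animal in all 3 OTV animals and 5 were above, against 22.3% and 12.8% of all genes.

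NDUFB9, an accessory subunit of complex I, was at 40.5, 34.9 and 30.9 CPM in saline animals 1, 2 and 3, at 37.4, 43.6 and 50.7 in ASO animals, and at 16.2, 15.9 and 13.8 in OTV animals. All 3 OTV animals were below the other 6. The log2 fold change against saline was -1.11 (SE 0.17, adjusted p = 0.00446), and it was called without any 1 of the 9 animals (-1.21 to -1.03). It was not called among the 6 animals with over 50 M UMIs, which leave a single OTV animal. COX7A2, the isoform of complex IV subunit VIIa found in most tissues, was at 27.1, 26.4 and 15.2 in saline animals, 23.8, 34.9 and 27.2 in ASO animals, and 10.6, 8.66 and 8.28 in OTV animals. Again no OTV animal reached the others, although saline animal 3 lay nearest to them. Its log2 fold change was -1.21 (SE 0.28, adjusted p = 0.0211), and the call was lost without saline animal 1, saline animal 2, OTV animal 2 or OTV animal 3.

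The 3 genes that rose were 2 core subunits from the arm of complex I that takes up electrons from NADH and 1 accessory subunit. NDUFS1, the largest core subunit, carries iron-sulfur clusters and was at 59.4, 61.3 and 54.1 CPM in saline animals, 59.5, 57.2 and 58.2 in ASO animals, and 73.8, 73.7 and 69.6 in OTV animals (log2 fold change 0.42, SE 0.11, adjusted p = 0.0374). NDUFV1, the core subunit that oxidises NADH, was at 6.94, 6.88 and 5.25 in saline animals, 7.25, 10.9 and 10.6 in ASO animals, and 12.97, 8.48 and 12.3 in OTV animals (0.93, SE 0.26, adjusted p = 0.0451). NDUFA10, an accessory subunit related to nucleoside kinases, was at 15.7, 18.6 and 19.7 in saline animals, 19.5, 21.7 and 24.0 in ASO animals, and 27.1, 24.7 and 27.4 in OTV animals (0.66, SE 0.15, adjusted p = 0.0207). OTV animals lay above saline animals without overlap for all 3 genes, and above ASO animals for NDUFS1 and NDUFA10. These calls were less firm: NDUFS1 was called in 0 of 9 fits that left out an animal, NDUFV1 in 1, when OTV animal 2 was left out, and NDUFA10 in 5, lost without saline animal 1 or 2 or OTV animal 1 or 3.

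Complex IV had the lowest median of the 5 complexes. All 10 tested subunits had a log2 fold change below 0 over all nuclei, with a median of -0.67, but only COX7A2 was called. COX6B1 had the lowest value, -1.40, and was not called, and saline animal 3, at 5.50 CPM, overlapped the OTV animals, which ran from 2.49 to 7.11. Among subunits with tissue isoforms, COX4I1, the usual subunit IV, was at 35.0, 34.5 and 19.5 CPM in saline animals, 32.6, 51.2 and 41.9 in ASO animals, and 28.1, 12.3 and 12.8 in OTV animals (-0.63, adjusted p = 0.298). COX8A, the usual subunit VIII, was at 14.7, 15.4 and 9.06, at 14.0, 23.2 and 16.6, and at 12.5, 5.02 and 6.51 (-0.59, adjusted p = 0.342). In both, OTV animal 1 lay among the saline animals and OTV animals 2 and 3 lay below all others. COX7A1, the heart and muscle isoform of VIIa, was low in every group, at 2.00 to 2.61 in saline animals and 1.22 to 2.93 in OTV animals (-0.20, adjusted p = 0.745). NDUFA4 was at 58.2, 57.2 and 24.2 in saline animals and 26.9, 14.9 and 18.3 in OTV animals, with overlap through saline animal 3 (-1.11, SE 0.36, adjusted p = 0.0731). Neither tested subunit of complex II was called, nor UQCRC1, the core protein of complex III that was its only member here. In complex V no member was called, and ATP5IF1, the inhibitor of its reverse action, was at 21.1, 20.9 and 10.6 in saline animals and 20.7, 9.46 and 12.3 in OTV animals, which overlapped (-0.20, adjusted p = 0.766).

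**Figure D2:**
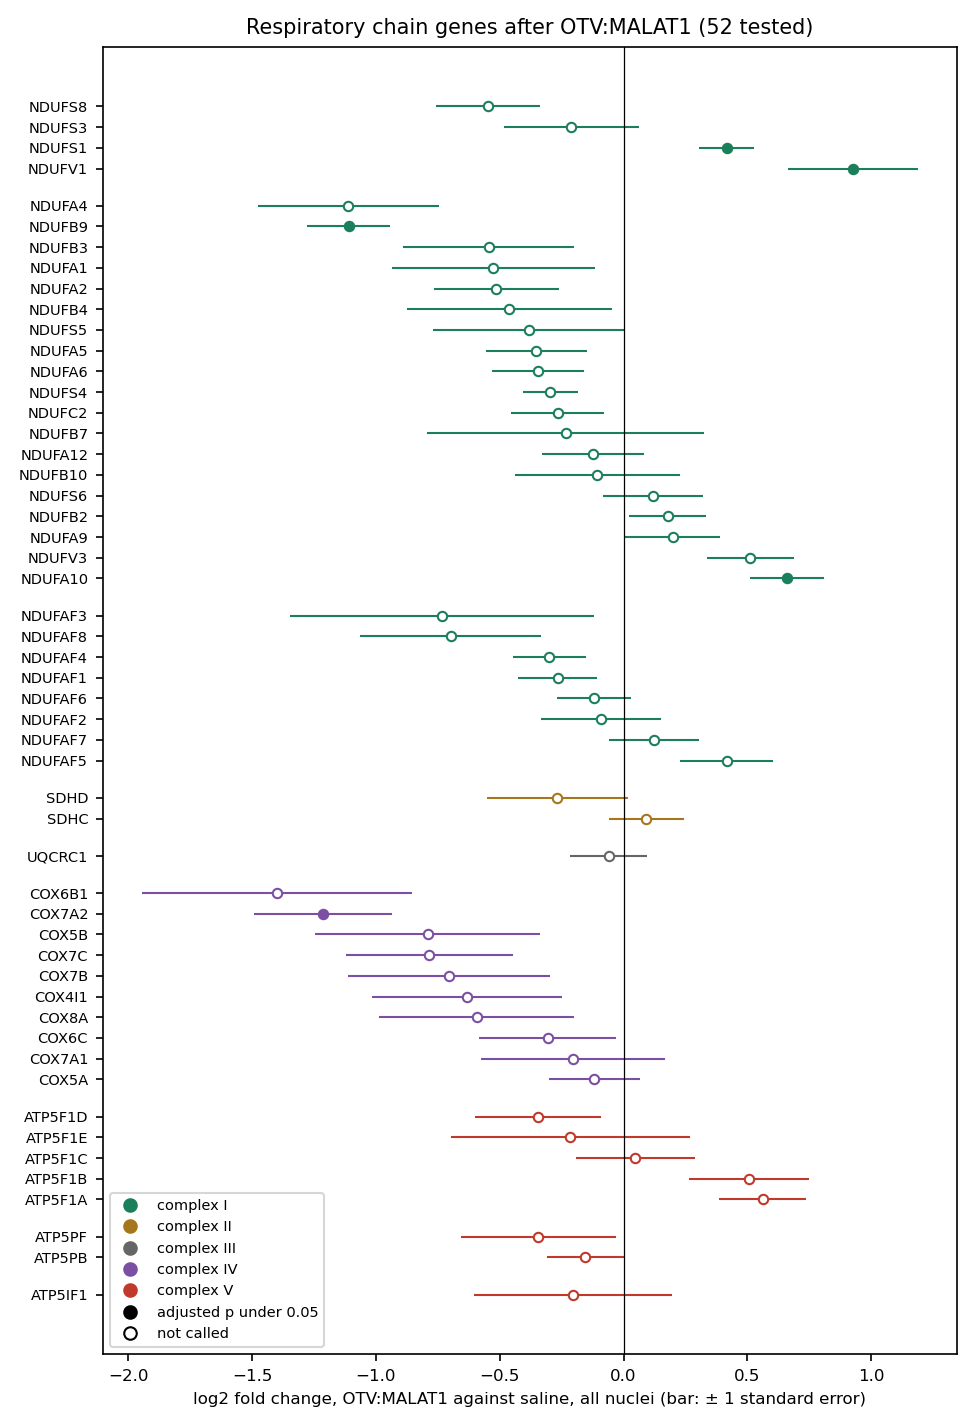
Log2 fold change of the 52 tested genes in OTV:MALAT1 against saline over all nuclei, grouped by complex. Complex I is split into core, accessory and assembly genes, and complex V into F1 subunits, peripheral stalk and inhibitor. Bars are 1 standard error, and filled points passed an adjusted p of 0.05. All 10 complex IV points lie left of 0 and only COX7A2 is filled.

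Within cell types, NDUFA4, NDUFB9, COX7A2 and NDUFS4 were the members most often called lower after OTV:MALAT1, and NDUFA10 the one most often called higher. Over the 4 types, 12 of 52 members were lower in at least 1 type, 6 in at least 2 and 4 in at least 3 (NDUFA4, NDUFB9, COX7A2 and NDUFS4), and NDUFA4 was lower in all 4. Of the 11324 genes tested in every type, 17.1% were lower in at least 1, 9.29% in at least 2, 5.66% in at least 3 and 3.08% in all 4. Without saline animal 1, NDUFA4 lost its call in each of the 4 types, and likewise without OTV animal 2. Only NDUFA10, NDUFV1 and ATP5F1A were higher in any type, NDUFA10 in 3, beside 18.2% of all genes in at least 1 type and 4.78% in at least 3. No member was called in both directions. Whether these changes differed between the types was tested directly with type by OTV terms in a fit of all 4 types with animal as a block. No member passed (0 of 52 in edgeR, 3 at an unadjusted p under 0.05, and 0 with DESeq2 size factors), while 3.53% of all genes did, so a call in some types and not in others shows no difference between them. Without saline animal 3, 1 member passed.

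In oligodendrocytes, 4 members were lower and 3 higher, beside 11.7% and 7.52% of all genes. With DESeq2, 5 were lower and 4 higher. NDUFA4 was at 61.3, 56.0 and 28.6 CPM in saline animals, 50.1, 70.8 and 69.0 in ASO animals, and 27.4, 14.7 and 17.4 in OTV animals. Saline animal 3 was closest to the OTV animals, which did not overlap the other groups (log2 fold change -1.25, SE 0.32, adjusted p = 0.0265). NDUFS4, an accessory subunit of complex I whose loss causes Leigh syndrome, was at 111, 106 and 103 in saline animals and 85.9, 80.6 and 77.2 in OTV animals, a small but separate difference (-0.35, adjusted p = 0.0264). NDUFB9 (-1.13, adjusted p = 0.00411) and COX7A2 (-1.27, adjusted p = 0.0107) fell as well. ATP5F1A, the alpha subunit in the catalytic head of ATP synthase, was at 27.0, 29.4 and 25.9 in saline animals, 30.1, 32.0 and 30.8 in ASO animals, and 33.7, 33.7 and 45.7 in OTV animals (0.50, SE 0.13, adjusted p = 0.0293). NDUFV1 (0.85, adjusted p = 0.0373) and NDUFA10 (0.54, adjusted p = 0.0270) were the other genes that rose. The calls of NDUFA4 and NDUFA10 were lost without saline animal 1 or 2 or OTV animal 3, that of NDUFA4 also without OTV animal 2, and that of NDUFA10 also without OTV animal 1. ATP5F1A lost its call without any 1 saline animal, ASO animal 1 or OTV animal 3, NDUFS4 without saline animal 1 or 2 or OTV animal 2 or 3, and NDUFV1 without any animal other than ASO animals 1 and 2 and OTV animal 2. NDUFB9 and COX7A2 were called without any 1 of the 9 animals. The count of 7 fell to 2 without saline animal 1 or 2, to 3 without OTV animal 3 and with a term for the region score, and to 0 in the animals with over 50 M UMIs, and it was 15 without OTV animal 1. In the oligodendrocytes, mural cell markers (4 of 5 measured, none at 0) took 0.221 to 0.324 of 10000 UMIs in saline animals and 0.330 to 0.598 in OTV animals, and T cell markers (4 of 4, none at 0) 0.296 to 0.402 and 0.217 to 0.240. Telencephalic astrocyte markers (3 of 3) there took 0.00942 to 0.0917 in saline animals and 0.00215 to 0.00245 in OTV animals. The part of any of these markers in the oligodendrocyte results was not tested.

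In OPCs, 8 members were lower and 1 higher, beside 11.9% and 10.2% of all genes. With DESeq2, 11 were lower and 1 higher. NDUFB9 was at 53.3, 46.4 and 47.3 CPM in saline animals, 46.2, 50.3 and 64.6 in ASO animals, and 15.4, 20.9 and 8.01 in OTV animals. The lowest of the other 6 animals was more than 2-fold above the highest OTV animal (log2 fold change -1.66, SE 0.25, adjusted p = 0.00114). COX7A2 was at 27.7, 22.4 and 17.3 in saline animals, 26.9, 25.1 and 20.8 in ASO animals, and 7.70, 7.99 and 8.55 in OTV animals (-1.45, SE 0.22, adjusted p = 0.00116). Both genes were called in all 9 fits that left out an animal and in the alternatives run, of which the one with animals over 50 M UMIs holds a single OTV animal. NDUFA10 rose from 12.7, 15.8 and 17.3 in saline animals to 24.5, 24.4 and 24.0 in OTV animals (0.73, SE 0.18, adjusted p = 0.0159). ASO animals were at 17.1, 17.5 and 21.9, below every OTV animal, and ASO animal 1 lay below saline animal 3. The call of NDUFA10 was lost without saline animal 1 or 2. NDUFA4, NDUFS4, NDUFA6, COX5B, COX6B1 and COX7B were the others that fell, at -1.85 to -0.44. Of the 8 lower genes 4 were complex IV subunits (COX5B, COX6B1, COX7A2 and COX7B), and the 10 tested complex IV subunits had a median of -0.84. The count of 9 fell to 2 without saline animal 1, 3 without saline animal 2 and 4 without OTV animal 2 or in the animals with over 50 M UMIs, and it was 16 without saline animal 3. In the OPCs, oligodendrocyte markers (5 of 6 measured, none at 0) took 3.59 to 5.98 of 10000 UMIs in saline animals and 6.96 to 10.6 in OTV animals, and OPC markers (4 of 5, none at 0) 56.6 to 64.7 and 42.5 to 52.9. Neuron markers (6 of 6) there took 10.2 to 13.1 in saline animals and 7.69 to 9.06 in OTV animals. Thalamic neuron markers (4 of 4) took 4.84 to 5.27 and 6.37 to 9.02, and T cell markers (4 of 4) 0.1674 to 0.1725 and 0.0842 to 0.1175. The diencephalic and telencephalic astrocyte markers did not overlap there either. The part of any of these markers in the OPC results was not tested.

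In myeloid nuclei, which include microglia, 3 members were lower and 0 higher, beside 7.26% and 4.76% of all genes. DESeq2 gave the same 3 and 0, and 12 members reached an unadjusted p under 0.05 in edgeR. NDUFS4 was at 103, 113 and 110 CPM in saline animals, 107, 105 and 118 in ASO animals, and 70.2, 67.1 and 66.4 in OTV animals. The spread inside each group was small beside the gap, and no animal of the OTV group came near the others (log2 fold change -0.72, SE 0.11, adjusted p = 0.00405). NDUFB9 was at 41.97, 45.2 and 78.3 in saline animals, 81.0, 48.6 and 92.1 in ASO animals, and 13.6, 28.6 and 13.3 in OTV animals (-1.64, SE 0.38, adjusted p = 0.0242). The OTV animals were below the other 6, among which saline and ASO animals overlapped, and the call was lost without OTV animal 1 or 3. NDUFA4 was the remaining one (-0.89, SE 0.25, adjusted p = 0.0424), and its call was lost without 7 of the 9 animals, all but saline animal 3 and OTV animal 1. The count of 3 was 1 without OTV animal 3, with a term for the region score, or in the animals with over 50 M UMIs, 5 without OTV animal 1 and 6 without saline animal 3. Astrocyte markers (5 of 5 measured, none at 0) took 18.8 to 24.2 of 10000 UMIs in the myeloid nuclei of saline animals, 7.77 to 11.8 in those of ASO animals and 5.69 to 15.8 in those of OTV animals. Oligodendrocyte markers there took 6.84 to 8.30 in saline, 8.78 to 14.3 in ASO and 9.92 to 15.8 in OTV animals, and myeloid markers (6 of 6, none at 0) 55.0 to 62.5, 54.0 to 62.7 and 43.0 to 51.6. T cell markers (4 of 4) there took 0.378 to 0.792 in saline animals and 0.199 to 0.313 in OTV animals. The part of these markers in the myeloid results was not tested.

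In astrocytes, 8 members were lower and 1 higher, beside 9.12% and 6.27% of all genes, and 4 of the 8 were complex IV subunits. With DESeq2, 10 were lower and 2 higher. COX7A2 was at 34.7, 32.5 and 17.0 CPM in saline animals, 19.5, 22.5 and 24.0 in ASO animals, and 11.5, 9.76 and 9.54 in OTV animals (log2 fold change -1.41, SE 0.28, adjusted p = 0.0103). COX6B1 was at 19.9, 23.0 and 9.88 in saline animals, 17.5, 15.9 and 15.3 in ASO animals, and 6.48, 2.66 and 4.34 in OTV animals, on 3 to 214 UMIs per animal (-1.83, SE 0.37, adjusted p = 0.0113). No OTV animal overlapped the other groups for either gene. NDUFA1, NDUFA2, NDUFA4, COX7B, COX7C and ATP5PF, a stalk subunit of ATP synthase, were the others that fell, and the 10 complex IV subunits had a median of -1.18. NDUFA10 rose from 18.7, 23.1 and 19.2 to 33.1, 31.9 and 39.3 (0.82, SE 0.19, adjusted p = 0.0186), a call lost without saline animal 1 or OTV animal 3. These calls leaned on OTV animal 3, which held 961 of the group's astrocytes beside 488 and 180 in OTV animals 1 and 2. Without it the count of 9 was 0, and it was 2 without saline animal 1 and 4 without saline animal 2. It was 5 after thinning every animal to the smallest total, and 0 in the animals with over 50 M UMIs. Astrocyte markers in the astrocytes themselves took 28.7 to 44.2 of 10000 UMIs in saline animals and 16.8 to 29.5 in OTV animals, which overlapped. Oligodendrocyte markers there took 3.27 to 3.84 and 4.51 to 6.95. Mural cell markers took 1.53 to 1.75 and 1.24 to 1.43, and T cell markers 0.233 to 0.2855 and 0.167 to 0.231. The telencephalic astrocyte markers did not overlap either. The part of any of these markers was not tested.

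**Figure D3:**
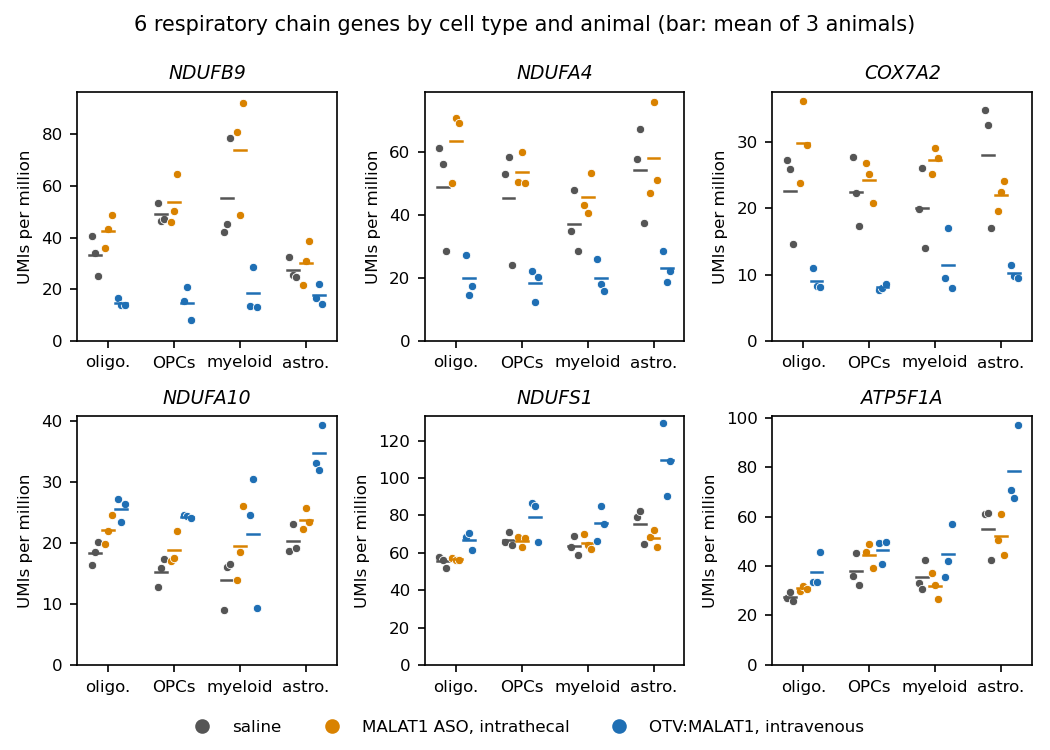
Levels of NDUFB9, NDUFA4, COX7A2, NDUFA10, NDUFS1 and ATP5F1A, in CPM, for each animal in oligodendrocytes, OPCs, myeloid nuclei and astrocytes. Points are animals and bars are means of 3. For NDUFB9 in OPCs the 3 OTV animals sit between 8.01 and 20.9, below all others, and for NDUFA10 in OPCs they sit between 24.0 and 24.5, above all others.

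In neurons, edgeR called 0 of 51 tested members in OTV against saline, where 3.78% of all genes were lower and 2.43% higher. At an unadjusted p under 0.05 there were 8, and DESeq2 called 1 lower. ATP5F1B, the beta subunit that carries the catalytic sites of ATP synthase, was at 26.3, 31.9 and 18.6 CPM in saline animals and 63.6, 39.2 and 76.3 in OTV animals, without overlap (log2 fold change 1.19, SE 0.31, adjusted p = 0.0598). COX7A2 was at 25.8, 51.0 and 14.3 against 11.1, 6.54 and 8.11, also without overlap on 2 to 144 UMIs per animal (-1.73, SE 0.46, adjusted p = 0.0631). NDUFV3 at 0.89 (adjusted p = 0.106), SDHC at 0.16 (adjusted p = 0.819) and UQCRC1 at -0.34 (adjusted p = 0.449) had the smallest p of complexes I, II and III. With 23 to 527 neurons per animal in these groups, and striatal markers at up to 72.2 of 10000 UMIs in saline but at most 5.31 in OTV animals, a difference in the kinds of neurons and a change within neurons cannot be told apart.

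OTV:MALAT1 was also compared with the intrathecal ASO, in a comparison that shares the OTV animals with the one against saline, so that the 2 sets of counts were not tested against each other. In this comparison members were called lower more often than higher, as were all genes tested. NDUFB9, COX7A2 and NDUFA4 were among the members called lower. Over all nuclei, 7 of 52 were lower and 1 higher, beside 11.1% and 6.83% of all genes, and 25 reached an unadjusted p under 0.05. In level, 27 members were below every ASO animal in all 3 OTV animals and 3 were above, beside 26.5% and 14.5% of all genes. The lower genes were NDUFB9 (-1.40, SE 0.17, adjusted p = 0.00137), COX7A2 (-1.54, SE 0.28, adjusted p = 0.00714), NDUFA4 (-1.47, SE 0.37, adjusted p = 0.0264), COX6B1 (-1.96, SE 0.55, adjusted p = 0.0418), NDUFA6, NDUFC2 and NDUFAF8. NDUFA6, an accessory subunit of complex I, was at 38.7, 46.7 and 43.0 CPM in ASO animals and 29.2, 27.2 and 19.5 in OTV animals, with saline animals between at 34.9, 36.8 and 31.9 (-0.65, SE 0.18, adjusted p = 0.0423). NDUFS1 rose by 0.42 (SE 0.11, adjusted p = 0.0318). NDUFB9 and COX7A2 were called without any 1 of the 9 animals. NDUFA4 lost its call without any 1 ASO animal or OTV animal 2 or 3, COX6B1 and NDUFA6 lost theirs also without saline animal 1 or 2, and NDUFS1 kept its call only without saline animal 3. The count of 8 was 2 or 3 without saline animal 1 or 2, any ASO animal, or OTV animal 2 or 3. It was 13 or 14 without OTV animal 1 or saline animal 3, 17 with DESeq2, 4 without a filter on low counts, and 1 in the animals with over 50 M UMIs.

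By type against ASO, 13 members were lower and 1 higher in oligodendrocytes (15.1% and 11.2% of all genes), 15 and 0 in OPCs (14.4% and 12.7%), 8 and 1 in myeloid nuclei (11.1% and 9.42%), and 4 and 3 in astrocytes (12.5% and 9.51%). DESeq2 called 20 lower and 2 higher in oligodendrocytes, 22 in place of 14, with no share of all genes to set beside it. NDUFA4 and COX7A2 were lower in all 4 types, at -1.58 to -1.14 and at -1.62 to -0.98, 2 of 52 members beside 4.30% of the genes tested in every type. In astrocytes NDUFA4 lost its call without ASO animal 2 or OTV animal 3, and COX7A2 without any 1 ASO or OTV animal. In myeloid nuclei COX7A2 lost its call without OTV animal 1 or 3. For NDUFA4 in OPCs, ASO animals were at 50.4, 59.8 and 50.1 and OTV animals at 22.0, 12.4 and 20.3, with no overlap. For COX7A2 in myeloid nuclei, ASO animals were at 25.2, 29.1 and 27.6 and OTV animals at 9.44, 17.0 and 7.96, again with no overlap, on 6 to 110 UMIs per animal. Members above the ASO animals were NDUFA9 in myeloid nuclei (0.49, SE 0.14, adjusted p = 0.0367), NDUFS1 in oligodendrocytes (0.33) and astrocytes (0.80, SE 0.19, adjusted p = 0.0147), and NDUFA10 (0.66) and ATP5F1A (0.70) in astrocytes. NDUFS1 in astrocytes was at 68.7, 72.4 and 63.1 in ASO animals and 129, 90.5 and 109 in OTV animals, and its call was lost without ASO animal 3. NDUFA9 lost its call without 6 of the 9 animals, NDUFS1 in oligodendrocytes without all but saline animal 3 and OTV animal 3, and NDUFA10 in astrocytes without ASO animal 1 or 3 or OTV animal 1 or 3. Summed over types, the count of 45 calls was 21 without OTV animal 3, 27 without ASO animal 2, 28 without OTV animal 2, and 12 in the animals with over 50 M UMIs. Marker levels moved with these groups too. OPC markers in the OPCs took 64.5 to 67.7 of 10000 UMIs in ASO animals and 42.5 to 52.9 in OTV animals, and astrocyte markers in the astrocytes 32.1 to 39.2 and 16.8 to 29.5. In the oligodendrocytes, mural cell markers took 0.231 to 0.275 in ASO animals and T cell markers 0.305 to 0.477, neither overlapping the OTV values above, and the myeloid markers in the myeloid nuclei did not overlap either. Neuron markers in the OPCs took 10.9 to 12.9 in ASO animals and 7.69 to 9.06 in OTV animals. In the astrocytes, mural cell markers took 1.97 to 2.06 and 1.24 to 1.43, and thalamic neuron markers 6.25 to 6.99 and 7.07 to 9.42. T cell markers in the OPCs and astrocytes, and endothelial markers in the myeloid nuclei, did not overlap either. The part of these markers in the comparison with ASO was not tested.

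The intrathecal ASO against saline gave almost no call among these genes. Over all nuclei, 0 of 52 passed in edgeR, 0 at an unadjusted p under 0.05, and 0 in DESeq2, beside 0.032% of all genes called in either direction. The log2 fold change was above 0 for 42 of 52 members, at a median of 0.25. ASO animals were above saline animals without overlap for 7 of 52 members and below for 1, NDUFAF4, beside 10.1% and 6.16% of all genes. SDHD was one of the 7, at 16.4, 17.7 and 9.66 against 19.8, 27.2 and 20.1 (0.62, SE 0.28, adjusted p = 0.535), as were ATP5F1D, the delta subunit of ATP synthase (0.42, adjusted p = 0.567), and NDUFV1 (0.59, adjusted p = 0.530). COX4I1, at 0.50 (adjusted p = 0.621), and UQCRC1, at 0.17 (adjusted p = 0.671), had the smallest p of their complexes and overlapped. In edgeR and in DESeq2 there were 0 calls in oligodendrocytes (0.394% of all genes), OPCs (0.262%) and astrocytes (0.0147%), with 1, 1 and 0 members at an unadjusted p under 0.05 in edgeR. In OPCs that member was ATP5F1D, at 24.4, 25.4 and 17.9 against 37.4, 36.6 and 26.4 (0.51, adjusted p = 0.444), and in oligodendrocytes NDUFV1, at 6.78, 6.39 and 5.21 against 7.22, 11.2 and 11.4 (0.64, adjusted p = 0.324).

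The single call was SDHD in myeloid nuclei, where 0.197% of all genes were called in either direction. SDHD encodes a membrane anchor of succinate dehydrogenase, which is both complex II and an enzyme of the tricarboxylic acid cycle. It was at 21.0, 21.9 and 15.3 CPM in saline animals, 68.9, 70.5 and 74.1 in ASO animals, and 17.0, 14.3 and 15.9 in OTV animals, on 12 to 267 UMIs per animal. The ASO animals were more than 3-fold above every other animal and close to each other, while saline and OTV animals overlapped. The log2 fold change against saline was 1.81 (SE 0.18, adjusted p = 0.00117), and OTV against ASO gave -2.17 (SE 0.19, adjusted p = 0.000128). It was called in all 9 alternatives (1.70 to 1.83) and without any 1 of the 9 animals (1.69 to 1.89).

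SDHD was not called in the other types after ASO. It was at 17.1, 17.8 and 12.9 against 18.0, 25.9 and 18.4 in oligodendrocytes (0.34, adjusted p = 0.586), at 13.3, 14.3 and 9.35 against 17.5, 16.5 and 15.4 in OPCs (0.35, adjusted p = 0.746), and at 22.2, 19.2 and 10.98 against 19.5, 31.8 and 18.8 in astrocytes (0.33, adjusted p = 0.984). ASO and saline animals overlapped in astrocytes and were separate, by small margins, in oligodendrocytes and OPCs. A test of whether the change after ASO differs between the 4 types, added after SDHD had been seen, gave an adjusted p of 0.00506 for SDHD by edgeR and called no other member, beside 0.957% of all genes. This call was lost without saline animal 2 (adjusted p = 0.0599). It was also lost after thinning the sum of every animal and type to the smallest such sum (adjusted p = 0.691). Without ASO animal 3, NDUFAF2 was called too. A contrast of myeloid nuclei with the mean of the other 3 types was also chosen after SDHD had been seen in myeloid nuclei. It is no independent support. SDHD was the member called there by edgeR (1.49, SE 0.21, adjusted p = 0.000788), beside 0.6% of all genes. The same thinning of sums per animal and type lost this call (1.04, adjusted p = 0.435). Both myeloid clusters of the authors showed it. Cluster 7 was at 19.0, 17.9 and 17.3 in saline animals, 89.5, 73.5 and 85.0 in ASO animals, and 17.0, 12.1 and 12.9 in OTV animals. Cluster 9 was at 22.9, 24.8 and 10.7, at 61.4, 69.2 and 70.3, and at 17.2, 16.6 and 18.0.

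SDHC, the other complex II anchor, was not called in myeloid nuclei in any comparison of groups, at -0.41 in ASO against saline (adjusted p = 0.488). Genes near SDHD in the reference gene order were looked up in the same nuclei, and none of those tested was called after ASO. Of its immediate neighbours, IL18 was at 0.27 (adjusted p = 0.683) and TIMM8B at -0.60 (adjusted p = 0.559) in ASO against saline. PIH1D2, 3 places away, was at 137, 185 and 129 in saline animals and 266, 324 and 277 in ASO animals, without overlap, but was not called (0.91, adjusted p = 0.255). In OTV against ASO it was called lower (-1.14, adjusted p = 0.0166). TEX12, 2 places away, was too low to test, at 0 in every saline animal and 0.710, 0.792 and 2.69 in ASO animals. The endothelial markers (3 of 5 measured, none at 0) took 4.70 to 7.07 of 10000 UMIs in the myeloid nuclei of saline animals and 7.63 to 8.90 in those of ASO animals, and the astrocyte and oligodendrocyte markers given above did not overlap there between the 2 groups. The part of any of them in the SDHD result was not tested.

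**Figure D4:**
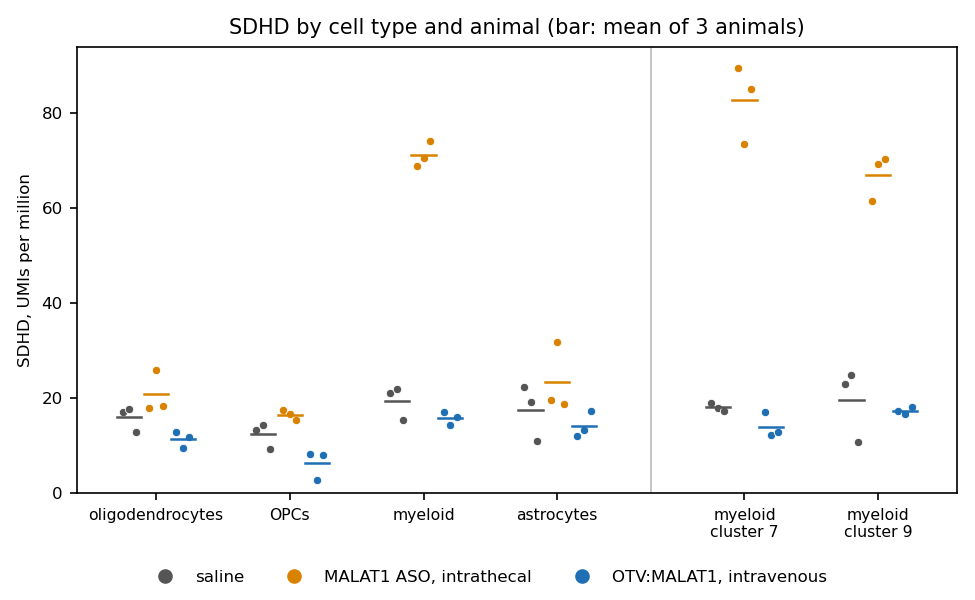
SDHD in CPM for each animal in 4 cell types and in the 2 myeloid clusters. Points are animals and bars are means of 3. ASO animals sit between 68.9 and 74.1 in myeloid nuclei, and the saline and OTV animals between 14.3 and 21.9.

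In the saline animals, astrocytes had 19 respiratory chain genes called higher than in the other types, a count that was 13 without saline animal 2, and myeloid nuclei had 15 called lower, a share no larger than among all genes. The share of all 57 genes was 17.9 ± 2.31 of 10000 UMIs (SD, n = 3) in astrocytes, 15.4 ± 2.30 in OPCs, 14.8 ± 0.775 in myeloid nuclei and 13.7 ± 1.73 in oligodendrocytes. The ranges of neighbours in this order overlapped, although within each of the 3 animals astrocytes were above OPCs. Neurons were at 17.3 ± 4.41, from 13.1 to 21.9. The authors' types were defined from expression in these same nuclei, so the comparison of types describes them.

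Astrocytes were higher than the mean of the other 3 types in 19 of 52 members and lower in 2, by edgeR's quasi-likelihood test with animal as a block, beside 26.7% and 26.2% of all genes. Without saline animal 2, 13 of 52 were higher. After thinning the sum of every animal and type to the smallest such sum, 14 of 49 were higher. The shares of all genes above belong to the fit with all animals at full depth, so these counts have no matching share. Of the higher genes, 8 belonged to complex I, 1 to complex III, 6 to complex IV (of 10 tested) and 4 to complex V (of 8). COX5A, a complex IV subunit on the matrix side, was at 30.9 ± 2.50 CPM in astrocytes, 18.2 ± 3.14 in myeloid nuclei, 14.8 ± 3.10 in OPCs and 13.3 ± 1.21 in oligodendrocytes (log2 difference 0.97, SE 0.13, adjusted p = 9.6e-07). NDUFA12, an accessory subunit, followed at 0.87 (SE 0.14, adjusted p = 1.95e-05), and NDUFAF5, an assembly factor of complex I, at 0.79 (SE 0.12, adjusted p = 5.65e-06). NDUFB9, at -0.75, and NDUFB2, at -0.29, were lower in astrocytes. All 10 complex IV subunits had a difference above 0 here.

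Myeloid nuclei were lower in 15 members and higher in 5, beside 32.8% and 30.6% of all genes. The lower ones with the smallest p were NDUFC2 (-0.74, SE 0.11, adjusted p = 2.75e-06), an accessory subunit of complex I at 21.8 ± 4.57 CPM in myeloid nuclei and 31.5 ± 3.78 in oligodendrocytes, NDUFAF5 (-0.83) and NDUFA5 (-0.68). The higher ones were led by NDUFA2 (0.62, SE 0.12, adjusted p = 0.000124), SDHC (0.45) and ATP5PB (0.42), a stalk subunit of ATP synthase. SDHC was at 30.4 ± 4.57 in myeloid nuclei and between 19.5 and 21.4 in the other 3 types.

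OPCs were lower in 7 members and higher in 5, beside 25.4% and 26.0% of all genes. NDUFAF2, an assembly factor of complex I, was the clearest, at 203 ± 14.1 CPM in OPCs and 114 ± 18.7, 118 ± 16.5 and 124 ± 14.1 in oligodendrocytes, myeloid nuclei and astrocytes (0.81, SE 0.12, adjusted p = 2.99e-06). NDUFA5 (0.39) and NDUFC2 (0.35) were also higher, and NDUFA2 (-0.60), SDHD (-0.49) and NDUFV3 (-0.46) lower. Oligodendrocytes were lower in 5 members and higher in 7, beside 27.6% and 28.5% of all genes. COX7A1 was at 1.53 ± 0.495 in oligodendrocytes and between 3.83 and 4.56 in the other 3 types (-1.33, SE 0.26, adjusted p = 0.00012). ATP5F1A and COX5A were each at -0.44. NDUFAF3, an assembly factor, was higher at 1.02, NDUFB2 at 0.38 and NDUFC2 at 0.27.

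The split by direction moved with the scaling between types: with DESeq2 size factors, 11 members were lower and 3 higher in oligodendrocytes, 4 and 6 in OPCs, 17 and 4 in myeloid nuclei, and 2 and 24 in astrocytes. Summed over types, the count of 65 calls was 42 without saline animal 2 and 36 after thinning the sums per animal and type as above. In OPCs the count of 12 was 6 without saline animal 1 or 2 and after thinning. In oligodendrocytes the count of 12 was 7 without saline animal 1, and 2, both lower, after thinning. In myeloid nuclei the count of 20 was 13 without saline animal 1 or 2 and after thinning. Without saline animal 1, the calls of NDUFB2 in astrocytes, SDHC in myeloid nuclei, NDUFA5, NDUFC2 and SDHD in OPCs, and NDUFC2 in oligodendrocytes were lost. Those of SDHC in myeloid nuclei and SDHD in OPCs were lost without saline animal 2 too, and without saline animal 3 those of ATP5PB in myeloid nuclei, NDUFA5 in OPCs and NDUFC2 in oligodendrocytes. NDUFC2 in oligodendrocytes went from 0.27 to -0.11 (adjusted p = 0.768) after thinning.

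**Figure D5:**
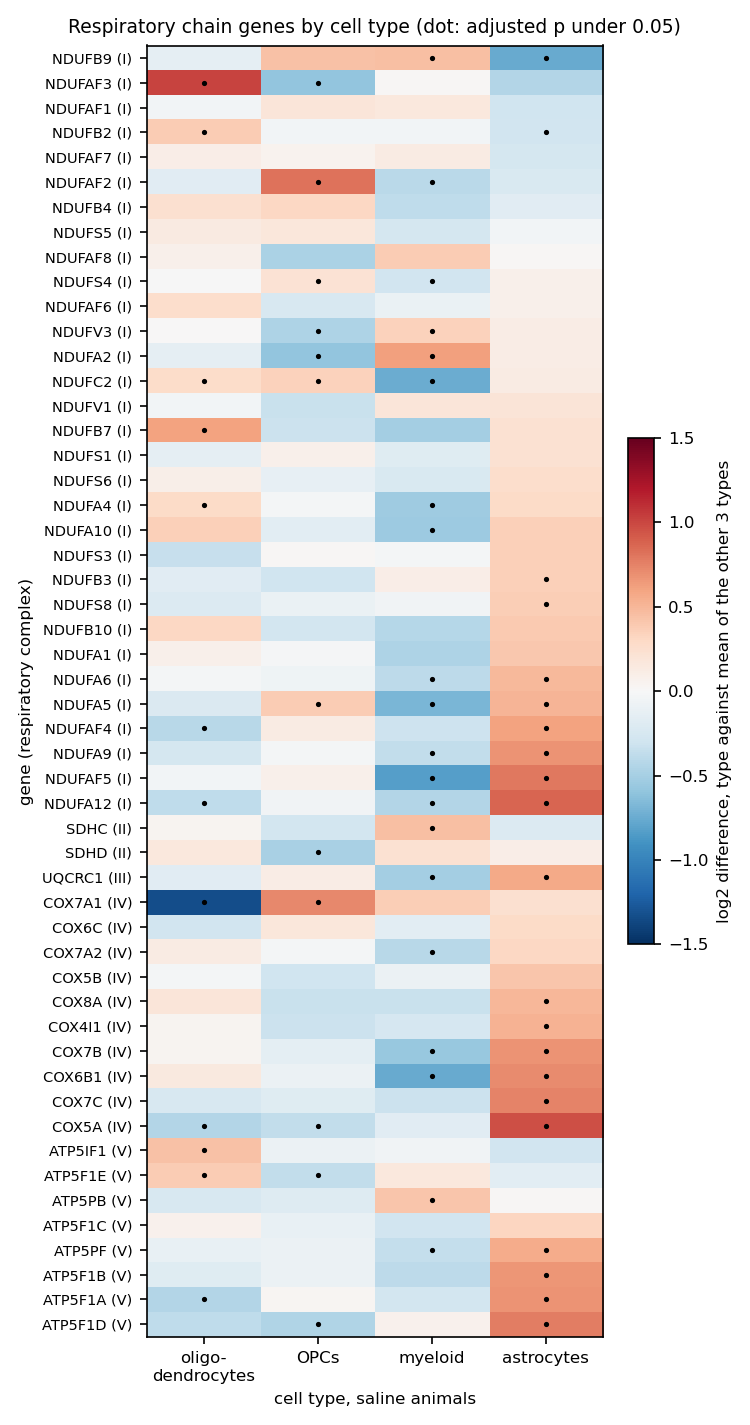
Difference of each cell type from the mean of the other 3 in saline animals, as log2 colour, for the 52 tested genes ordered by complex and then by their value in astrocytes. Dots mark an adjusted p under 0.05. The astrocyte column is red for all 10 complex IV genes, and COX5A is highest at 0.97.

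Other genes of mitochondrial energy metabolism, outside the rule, were set beside the members in OTV against saline over all nuclei, where 9.94% of all genes were called lower and 5.72% higher. Of 38 tested assembly factors and carriers, 3 were lower and 3 higher. COX11, which inserts copper into complex IV, was at 21.8, 21.7 and 22.5 CPM in saline animals, 30.7, 22.2 and 27.2 in ASO animals, and 10.9, 11.7 and 9.66 in OTV animals, without overlap (log2 fold change -0.93, SE 0.15, adjusted p = 0.00561). It was called without any 1 of the 9 animals. COX18, which helps to insert a complex IV subunit into the membrane, fell by 0.72 on the log2 scale, and its call was lost without saline animal 2 or OTV animal 3. TMEM126A fell by 0.82, and its call was lost without 6 of the 9 animals. FOXRED1 (1.00) and ECSIT (0.84), both needed to assemble complex I, and COA8 (0.60), a complex IV assembly factor, rose. The call was lost for FOXRED1 without saline animal 1 or 2 or OTV animal 1 or 3, for COA8 without saline animal 1 or 2 or OTV animal 3, and for ECSIT without all but saline animal 3 and OTV animal 2. With a term for the region score, COA8, ECSIT and TMEM126A lost their calls. With only the 2 groups compared, these 3 and FOXRED1 lost theirs.

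Of 16 regulators and factors of mitochondrial transcription, 2 rose and 0 fell over all nuclei. DESeq2 called 3 higher and 0 lower, and 3 reached an unadjusted p under 0.05 in edgeR. POLRMT, the RNA polymerase that transcribes mitochondrial DNA, was at 7.65, 7.69 and 5.86 CPM in saline animals, 14.8, 8.58 and 6.13 in ASO animals, and 18.5, 13.4 and 17.3 in OTV animals. OTV animals were above saline animals without overlap, and ASO animal 1 lay among them (1.32, SE 0.33, adjusted p = 0.0301). POLRMT was also called in all 4 types (1.15 to 1.57). Over all nuclei its call was lost without any 1 of the saline or OTV animals. It was also lost with a term for the region score, where the value was 0.84. ESRRA, a nuclear receptor that drives respiratory genes, rose by 0.88, and its call was lost without 7 of the 9 animals. It was also lost with the region term, with only the 2 groups compared and after thinning. In OPCs edgeR called 2 regulators lower, NRF1 (-0.35, adjusted p = 0.0392) and ESRRG (-0.58, adjusted p = 0.0170), beside 11.9% of all genes. The 2 called higher there were POLRMT and POLG (0.715, adjusted p = 0.0103), beside 10.2%. POLG also rose in myeloid nuclei (0.68, adjusted p = 0.0473).

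No tested enzyme of the tricarboxylic acid cycle (0 of 15) or of glycolysis (0 of 8) was called by edgeR over all nuclei, with 2 of each at an unadjusted p under 0.05, while DESeq2 called 2 of the former, both higher, and 1 of the latter, lower. Within types, 0 of the 15 enzymes of the cycle were called, with 0 to 3 at an unadjusted p under 0.05, but glycolytic genes were. PFKL, the liver isoform of phosphofructokinase, rose in oligodendrocytes (1.04, adjusted p = 0.0314), OPCs (0.90, adjusted p = 0.0311), astrocytes (1.44, adjusted p = 0.0184) and neurons (1.40, adjusted p = 0.0418). LDHB, a subunit of lactate dehydrogenase, fell in oligodendrocytes (-0.58) and OPCs (-0.47), and PFKM, the muscle isoform of phosphofructokinase, fell in oligodendrocytes (-1.03). Mitochondrial ribosomal protein genes, which serve the translation of the 13 mitochondrial messages, were lower in 7 of 56 and higher in 0 by edgeR, near the share of all genes called lower, with a median of -0.20. Cytosolic ribosomal protein genes were lower in 2 of 39, with a median of -0.45, further below 0 than that of the respiratory chain genes (-0.27). In ASO against saline, edgeR called 0 of the genes in each of these lists over all nuclei, and DESeq2 called 0 of the assembly factors, regulators and enzymes, 2 mitochondrial (1 lower, 1 higher) and 1 cytosolic ribosomal protein gene (higher). At an unadjusted p under 0.05 there were 2 assembly factors, 0 regulators, 0 enzymes of the tricarboxylic acid cycle, 0 of glycolysis, 5 mitochondrial and 1 cytosolic ribosomal protein genes.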

How the data were processed

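Single nuclei of 9 animals were measured by 10x sequencing. Per the submitters' processing notes, Cell Ranger 6.1.2 and Seurat 4 were used and the build is GRCh38.p13, although features without a symbol carry cynomolgus identifiers, so the annotation is uncertain. The nuclei protocol in the labels speaks of mouse tissue. The deposited matrix holds UMI counts per nucleus, raw per the file values. Cell types, clusters and doublet calls (all singlets) are those the authors deposited, in which 17 clusters carry 6 type names.

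Counts were summed per animal and type, since nuclei are not replicates and each sample is a separate animal. edgeR 4.0.16 (TMM scaling, filterByExpr by group, robust quasi-likelihood test, with all 9 animals in the fits other than that of neurons) was run in R 4.3.3, with Benjamini-Hochberg adjustment over all genes tested, and genes under an adjusted p of 0.05 were called. DESeq2 1.42.0 was an alternative. A type entered with the animals that held at least 20 of its nuclei, which in neurons left out ASO animals 1 and 2, so neurons were compared in OTV against saline only. Type differences used animal as a block. CPM and shares come from the summed counts. The scripts were tested on simulated data.

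The genes were taken by symbol, and they, the pathway lists and the tests were chosen with earlier results of these data known. Genes named are, per contrast, up to 3 called genes per complex and direction over all nuclei, up to 2 per direction and type, genes called in all 4 types, up to 3 per direction and type for type differences, the gene with the smallest p where none was called, and tissue isoforms. Other genes named, the pathway genes and the neighbours of SDHD were chosen after their values were seen. The table of RefSeq genes was used for gene order only. Promoter motifs were not analysed here.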

Additional observations from a re-analysis of the deposited data

Results flagged for a closer look

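The change of SDHD after intrathecal ASO differed between the 4 cell types, with an adjusted p of 0.00506 by edgeR's quasi-likelihood test of the type by ASO terms, adjusted over all 16830 genes of that fit. Its log2 fold change against saline was 1.81 in myeloid nuclei and 0.33 to 0.35 in the other 3 types. The call was lost without saline animal 2 (adjusted p = 0.0599). It was also lost after thinning the sum of every animal and type to the smallest such sum (adjusted p = 0.691). The test was added after the values had been seen, and the cause was not tested.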

How the results depend on the processing

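No paired analysis was possible because the labels number animals and do not link them across groups. Library depth, region score and dosing route move with the groups, and 3 animals per group limit every call. Of 1725 recomputed values for 100 named results, 1510 kept their side of the threshold (9 of them, all uncalled values, changed sign), 209 kept direction and lost the call, 5 gained it, and 1 called value reversed, NDUFC2 in oligodendrocytes of saline animals (-0.11 after thinning). The cause was not tested.

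Counts of called members that moved by over 1.5 times follow. Shares of all genes called are given for the main edgeR fits only. Whether the calls over all genes moved alike was not tested. OTV against saline gave 5 over all nuclei, 9 with DESeq2, 3 with no filter on low counts, 2 with only the groups compared, 2 with a term for the region score and 0 in the animals with over 50 M UMIs (chosen after seeing the data, and leaving a single OTV animal). Oligodendrocytes gave 7, then 3 with the region term and 0 in the deepest animals. OPCs gave 9, then 4 in the deepest animals. Myeloid nuclei gave 3, then 1 with the region term and 1 in the deepest animals. Astrocytes gave 9, then 5 after thinning and 0 in the deepest animals. Neurons gave 0, then 1 with DESeq2 and 1 with no filter. OTV against ASO gave 8 over all nuclei, 17 with DESeq2, 4 with no filter and 1 in the deepest animals, and 45 over the types, 12 in the deepest animals, with 14 in oligodendrocytes and 22 there with DESeq2. Types in saline gave 65, and 36 after thinning the sum of every animal and type to the smallest such sum.

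Leaving out each animal in turn gave 1 to 5 over all nuclei, 2 to 15 in oligodendrocytes, 2 to 16 in OPCs, 1 to 6 in myeloid nuclei, 0 to 11 in astrocytes and 0 to 1 in neurons for OTV against saline. It gave 0 over all nuclei and 1 over the types for ASO against saline, 2 to 14 and 21 to 59 for OTV against ASO, 42 to 76 for the types in saline, and 0 to 1 for the difference of the OTV change between types.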
